A study of Mus musculus with 8 samples.

Results

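Thyroid hormone signalling in the mouse cochlea was followed through 5 genes: the nuclear receptor genes Thra and Thrb, the deiodinase genes Dio2 and Dio3, and Crym, which encodes a cytosolic protein that binds the hormone. The genes were taken by symbol from a list, and each was read from its brightest array feature, by the mean of all 8 arrays, among those that the platform annotation linked to exactly 1 symbol. All 5 were measured, by 6 features, out of 22180 genes on 23521 such features. The study profiled whole encapsulated cochleae of mice at postnatal day 16 on Affymetrix Mouse Gene 2.0 ST arrays, with both cochleae of an animal pooled as 1 sample. The groups were 4 animals of the genotype miR-183/96 KO, in which the microRNA genes Mir183 and Mir96 are deleted, and 4 animals labelled control. The labels do not give strain, sex, how the knockout allele was made or whether the controls were wild-type littermates, although the series' design text calls them wild type. All values below are log2 expression values as deposited, made by the authors with the RMA procedure.

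The thyroid releases mainly the prohormone T4, and target tissues convert it to the active hormone T3. T3 binds nuclear receptors encoded by Thra and Thrb, which sit on DNA mostly with a retinoid X receptor and exchange corepressors for coactivators when the hormone binds. The cochlea needs this pathway around the onset of hearing: Dio2 makes T3 locally as hearing approaches, Dio3 inactivates it earlier, and loss of Thrb, Dio2 or Dio3 impairs hearing in mice, while variants of human CRYM have been linked to deafness. Postnatal day 16 lies soon after hearing onset in the mouse.

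The deleted microRNAs are shown here because they define the comparison, with those of the neighbouring Mir182 of the same cluster. Mature sequences are those of RefSeq (GRCm38.p6, minus strand), written 5′ to 3′, with the seed, bases 2 to 8, in capitals.
mmu-miR-96-5p: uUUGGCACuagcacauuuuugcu
mmu-miR-183-5p: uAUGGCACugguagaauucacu
mmu-miR-182-5p: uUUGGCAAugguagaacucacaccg
The seed of miR-96 differed from that of miR-183 at 1 base and from that of miR-182 at 1 base, and the seeds of miR-183 and miR-182 differed at 2 bases. Whether transcripts of the 5 genes hold matches to these seeds was not analysed here.

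The arrays were first checked against their labels. Mir96 read 4.01 to 4.31 in the knockout arrays and 5.26 to 6.23 in the control arrays, a difference of -1.48 (limma adjusted p = 0.00932). Mir183 was too dim to check the labels, at percentile 3.51 of features by level. Between pairs of arrays the correlation over 41345 features was 0.947 to 0.976, and array medians ran from 5.10 to 5.28. Coch and Otos, which mark the fibrocytes of the spiral ligament, lay at percentiles 99.6 and 99.7 of features, and all 8 hair cell markers lay above percentile 10, the dimmest being Tmc1 at percentile 16.7. Bone, blood and marrow and skeletal muscle genes were also bright, with median percentiles of 98.9, 98.8 and 88.2.

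None of the 5 genes passed the test between genotypes. At an adjusted p under 0.05 (limma with an intensity trend, Benjamini-Hochberg over all 23521 features), 0 of 5 were called, against 0.0128% of all features, which were Calb2, Mir96 and Snap25. At an unadjusted p under 0.05 the count was also 0 of 5, against 14.3% of all features, and in 0 of 5 genes were the groups free of overlap, against 5.96%. The adjusted p ran from 0.445 for Thrb to 0.976 for Dio3. Negative differences, knockout minus control, were found for 4 genes and a positive one for Dio2, where 47.6% of all features were negative. With an adjusted p this high the data do not show that any level was equal, so the 95% intervals of the differences are given with each gene.

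Thra encodes thyroid hormone receptor alpha, the more widely expressed receptor, and a splice form that does not bind T3. Its feature read 5.92, 6.11, 5.88 and 5.90 in the 4 knockout arrays and 6.17, 6.12, 6.05 and 5.98 in the 4 control arrays. In 3 knockout arrays Thra lay below every control array, and knockout replicate 2 lay among the controls, so the groups overlapped. The means were 5.95 ± 0.11 in knockout and 6.08 ± 0.08 in control cochlea (SD, n = 4), a difference of -0.13 with an SE of 0.11 and a 95% interval from -0.35 to 0.10 (limma adjusted p = 0.563). As a ratio the interval ran from 0.783 to 1.07 times the control level. The annotated span of Thra overlaps that of Nr1d1, a clock gene, in RefSeq, and the Nr1d1 feature differed by -0.12 (adjusted p = 0.579). Where the probes of either feature lie was not analysed here, and a gene-level feature does not separate the splice forms of Thra.

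Thrb encodes thyroid hormone receptor beta, the receptor whose loss causes deafness. It read 5.95, 5.91, 5.86 and 5.92 in knockout arrays and 5.85, 6.35, 6.14 and 6.08 in control arrays. The knockout values were close together and below 3 of the 4 control values, but control replicate 1 was the lowest array of all. The means were 5.91 ± 0.04 in knockout and 6.10 ± 0.20 in control cochlea (SD, n = 4), a difference of -0.19 (SE 0.12, 95% interval -0.45 to 0.06, limma adjusted p = 0.445). This was the smallest adjusted p of the 5 genes, and the interval ran from 0.735 to 1.04 times the control level. Without control replicate 1 the difference was -0.28 (limma adjusted p = 0.392), and without control replicate 2 it was -0.11 (adjusted p = 0.764). The feature does not separate the beta 1 and beta 2 receptors, which are made from different starts of the gene.

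**Figure D1:**
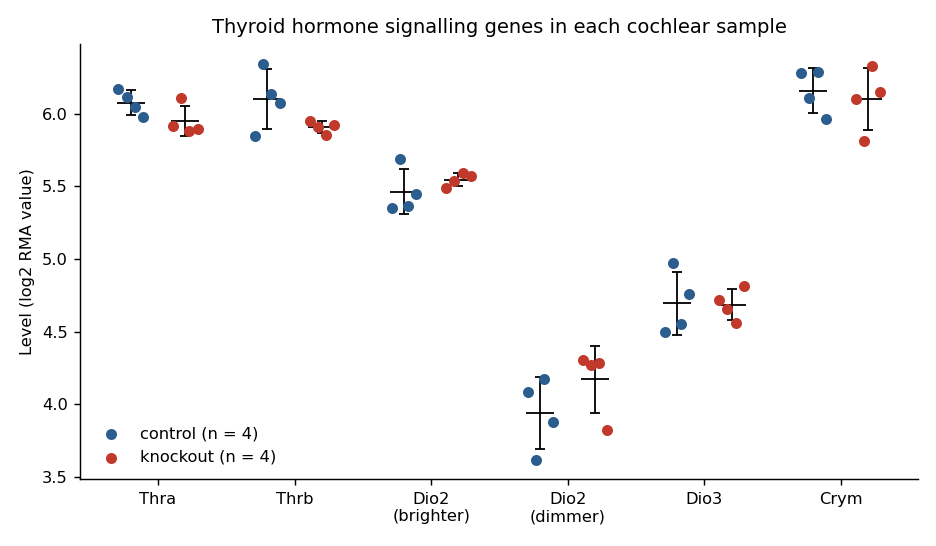
Log2 RMA level (y axis) of the 6 features of the 5 genes in each control (blue) and knockout (red) cochlear sample, with the mean and SD of 4 animals in black. The groups overlapped at every feature; the Thrb and brighter Dio2 features had a narrower spread in the knockout arrays (SD 0.04 for each) than in the control arrays (0.20 and 0.15).

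The receptors were also set against each other within each array, since an offset of a whole array cancels in such a difference. Thrb minus Thra was 0.03, -0.20, -0.02 and 0.03 in knockout arrays and -0.32, 0.23, 0.09 and 0.10 in control arrays. The control arrays held both the lowest and the highest value. The genotypes differed by -0.06 (two-sided exact permutation p = 0.657 over 70 assignments, and 0.657 after adjustment over 2 such measures), where the smallest p the design allows is 0.0286. Without control replicate 1, which held the lowest value, the difference was -0.18 (exact permutation p = 0.0286, and 0.0571 after adjustment over 2 measures). The unadjusted p is also the smallest that the remaining arrays allow. Without control replicate 2 the difference was 0.0039 (exact permutation p = 0.943). These values describe unequal change between features and not which receptor was more abundant.

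Dio2 encodes the enzyme that converts T4 to T3 inside the tissue. Its brighter feature read 5.49, 5.54, 5.59 and 5.57 in knockout arrays and 5.35, 5.69, 5.37 and 5.45 in control arrays. All 4 knockout values lay above 3 control values, and control replicate 2 was higher than every knockout array. The means were 5.55 ± 0.04 in knockout and 5.46 ± 0.15 in control cochlea (SD, n = 4), a difference of 0.08 (SE 0.11, 95% interval -0.16 to 0.32, limma adjusted p = 0.728). The interval ran from 0.897 to 1.25 times the control level. Without control replicate 2 the difference was 0.16 (adjusted p = 0.665).

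A second, dimmer feature of Dio2, at percentile 15.9 of features against 51.8 for the brighter one, read 4.31, 4.27, 4.29 and 3.82 in knockout arrays and 4.09, 3.62, 4.17 and 3.88 in control arrays. Here 3 knockout arrays lay above all control arrays and knockout replicate 4 lay near the low end. The difference was 0.23 (SE 0.16, 95% interval -0.10 to 0.57, limma adjusted p = 0.478), of the same sign as that of the brighter feature. Control replicate 2 was the highest array at the brighter feature and the lowest at the dimmer one. With both features averaged, the difference was 0.16 (adjusted p = 0.499). The span of Dio2 overlaps that of the predicted gene Gm26512 in RefSeq.

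Dio3 encodes the deiodinase that inactivates T4 and T3. Its feature read 4.71, 4.65, 4.56 and 4.81 in knockout arrays and 4.50, 4.98, 4.55 and 4.76 in control arrays. Every knockout value lay inside the control range. The means were 4.69 ± 0.11 in knockout and 4.69 ± 0.22 in control cochlea (SD, n = 4), a difference of -0.0096 (SE 0.13, 95% interval -0.29 to 0.27, limma adjusted p = 0.976). It was the dimmest of the 5 genes, at percentile 27.1 of features, and no detection call was available to say how far it stood above background. The sign of a difference this small was not stable: without control replicate 2 it was 0.08, and after cyclic loess normalization it was -0.12 (adjusted p = 0.809).

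The RNA levels of the 2 deiodinase genes were compared within each array as Dio2 minus Dio3, using the brighter Dio2 feature. Such a difference does not measure activation or inactivation of the hormone. The features lay in deciles 6 and 3 by level, so differences between arrays that follow level need not cancel. This measure was 0.78, 0.88, 1.03 and 0.76 in knockout arrays and 0.86, 0.71, 0.82 and 0.69 in control arrays. The ranges overlapped, although the highest value and the next highest came from knockout arrays. The means were 0.86 ± 0.13 in knockout and 0.77 ± 0.08 in control cochlea (SD, n = 4), a difference of 0.09 (two-sided exact permutation p = 0.286, and 0.571 after adjustment over 2 measures). After cyclic loess the difference was 0.18 (exact permutation p = 0.114), and without knockout replicate 3 it was 0.037 (exact permutation p = 0.571). With both Dio2 features averaged it was 0.17 (exact permutation p = 0.371).

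Crym encodes mu-crystallin, which holds T3 in the cytosol and is known in the cochlea from fibrocytes of the lateral wall. It read 6.10, 5.81, 6.33 and 6.15 in knockout arrays and 6.28, 6.11, 6.29 and 5.96 in control arrays. The knockout group held both the highest and the lowest array. The means were 6.10 ± 0.21 in knockout and 6.16 ± 0.16 in control cochlea (SD, n = 4), a difference of -0.06 (SE 0.13, 95% interval -0.34 to 0.22, limma adjusted p = 0.836). The interval ran from 0.791 to 1.16 times the control level. After cyclic loess the difference was 0.012 (adjusted p = 0.985), without knockout replicate 2 it was 0.036 (adjusted p = 0.884), and with the signal range of the arrays as a covariate it was -0.33 (adjusted p = 0.844).

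Over the 5 genes the lowest interval bound was -0.45, for Thrb, and the highest was 0.32, for Dio2. In these intervals, each taken on its own, a level 1.36 times higher in control or 1.25 times higher in knockout cochlea was the largest difference still included. These bounds are those of the feature chosen for each gene. The interval of the dimmer Dio2 feature reached 0.57, or 1.48 times the control level. Because whole cochlea was measured, fewer cells of a type and less RNA per cell cannot be told apart.

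**Figure D2:**
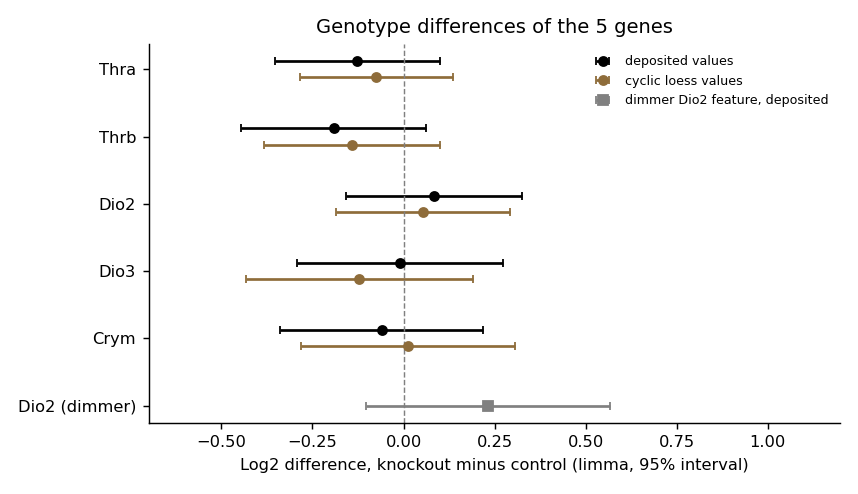
Log2 difference, knockout minus control, with its 95% interval (x axis; limma, 4 against 4 arrays) for the 5 genes as deposited (black) and after cyclic loess normalization (brown), and for the dimmer Dio2 feature (grey square). Every interval includes 0; Dio3 moved from -0.0096 to -0.12 and Crym from -0.06 to 0.012 with the normalization.

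At the feature chosen for each, the 5 genes had SDs below the median SD of all features. The SD over the 8 arrays was 0.11 for Thra and for Dio2, at percentiles 8.72 and 9.48 of the SDs of all features. It was 0.16 for Dio3 (percentile 28.2), 0.17 for Thrb (34.0) and 0.18 for Crym (36.9). The dimmer Dio2 feature had an SD of 0.25, at percentile 72.7. Thrb, Dio2 and Dio3 each had their highest value in control replicate 2 and their lowest in control replicate 1. Control replicate 2 also had the highest level of 10 skeletal muscle markers, 8.85, where the other control arrays ran from 6.73 to 7.23 and the knockout arrays from 5.48 to 6.93. With the level of that muscle list as a covariate, the difference was -0.08 for Thrb, 0.19 for Dio2 and 0.11 for Dio3, and 0 of the 5 genes passed.

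The mean levels of marker lists for the cell types in the sample differed between the genotypes to unlike degrees. The 6 measured fibrocyte markers had a mean level of 8.84 to 9.44 in knockout and 9.44 to 9.48 in control arrays, so the groups met at the edge. Of these markers 6 of 6 had negative differences, and all lay in the highest decile by level, where 87.7% of features did. The 7 supporting cell markers were at 5.79 to 6.13 and 6.09 to 6.31, and the 10 spiral ganglion neuron markers at 5.71 to 6.05 and 6.18 to 6.61. The 8 hair cell markers were at 5.31 to 5.65 and 5.69 to 5.86. The groups thus did not overlap for the neuron and hair cell lists, which hold the called genes Snap25 and Calb2. Of the hair cell markers, 6 were negative and 2 positive, with a median of -0.07, and Calb2 was at -1.60 and Myo6 at -0.53. Single genes were free of overlap in 2 of 8 hair cell and 6 of 10 neuron markers, against 5.96% of all features. The lists were chosen with earlier results of these data known, so these counts are a description and not a test. Bone markers (7 genes) ranged from 8.97 to 9.47 and from 9.16 to 9.58, and blood and marrow markers (7 genes) from 8.71 to 9.06 and from 8.85 to 9.40. Brain markers (6 genes, Gabra6 in the lowest decile) ranged from 4.90 to 5.13 and from 4.86 to 4.98. The part of these lists in the values of the 5 genes was not tested. The 3 measured thyroid gland markers Tg, Slc5a5 and Tshr were at 5.31 to 5.66 in knockout and 5.13 to 5.44 in control arrays, and 0 of them passed.

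Differences over the whole array followed the level of a feature. The median log2 difference was 0.13 in the lowest decile of features by mean level and -0.21 in the highest. Thra and Thrb lay in decile 7, where the median was -0.04, Dio2 in decile 6 (0.02), Dio3 in decile 3 (0.11) and Crym in decile 8 (-0.09). The signs of Thra, Thrb, Dio2 and Crym were those of the median of their decile, and that of Dio3 was not. A shared sign says little here, since the share of negative features was 57.4% in decile 7 and 46.6% in decile 6. It was 69.1% in decile 8 and 24.5% in decile 3. The Thrb difference of -0.19 was larger in size than its decile median. The part of level in the differences of the 5 genes was not tested.

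**Figure D3:**
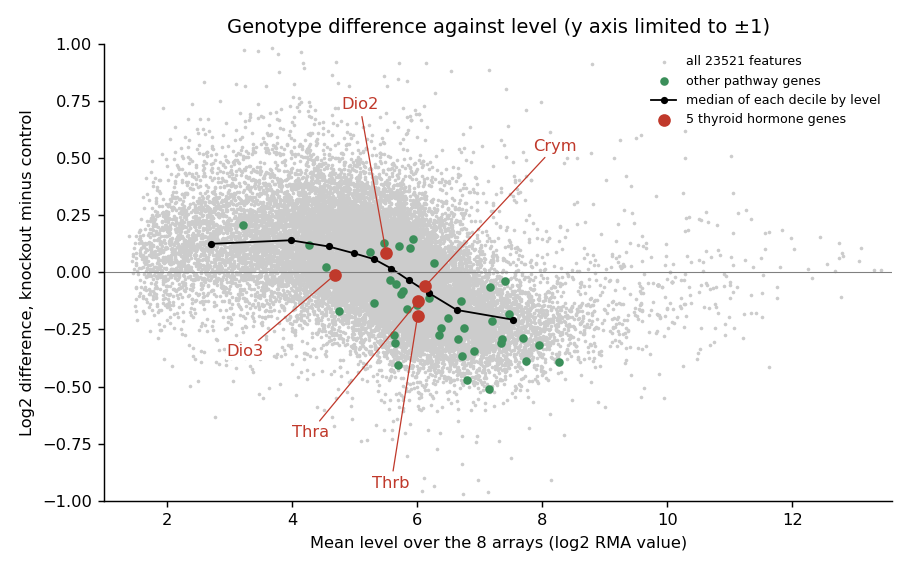
Log2 difference, knockout minus control (y axis), against the mean log2 RMA level over 8 arrays (x axis) for all features (grey), the 5 genes (red) and the other measured pathway genes (green); the black line joins the medians of deciles of features by level, and features beyond the y limits are not drawn. That line goes from 0.13 to -0.21. The 5 genes lie at moderate levels, with Thrb at -0.19 where its decile median was -0.04.

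The genes most like each of the 5 over the 8 arrays were taken as those whose centred log2 values lay nearest by root mean square distance. For Thra these were Ppm1l, Zdhhc3 and Brd3, at distances of 0.03, 0.03 and 0.03 on the log2 scale, and for Thrb they were Gm6867, Cycs and Atp5l, at 0.05, 0.06 and 0.06. The nearest to Dio2 were 4930581F22Rik, Lmod1 and Cadps2 (0.04, 0.04 and 0.05), and the nearest to Dio3 were Mrps33, Irak1bp1 and Mrpl40 (0.06, 0.07 and 0.07). For Crym they were 1700030F04Rik, A930003O13Rik and Cfap77, at 0.05, 0.05 and 0.06. The median distance to other genes ran from 0.21 for Thra to 0.24 for Thrb, so these are short distances, chosen among 22180 genes over only 8 arrays.

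Other genes of the pathway were read from 7 lists with 45 symbols, of which 41 were measured, and 0 of 41 passed the adjusted threshold in limma. At an unadjusted p under 0.05, 11 of 41 were lower in knockout cochlea and 0 were higher, where 7.25% and 7.04% of all features were. Negative differences were found in 32 of 41 genes, against 47.6% of features, with a median of -0.17 against 0.01 over all features. Groups did not overlap in 1 of 41 genes, Ppargc1a, against 5.96% of features. After cyclic loess, which fits away differences between arrays that follow level, 3 of 41 were lower at an unadjusted p under 0.05, against 4.05% of features. The median was then -0.09, against -0.0050 over all features, and 30 of 41 genes were still negative. With the signal range of the arrays as a covariate, 1 of 41 was lower at an unadjusted p under 0.05, against 3.14% of features, and the median was -0.01. The medians of the transporters, corepressors and coactivators were then 0.018, -0.0070 and 0.0030. Signal range, the SD of the log2 values of an array, was itself 1.37 to 1.44 in knockout and 1.41 to 1.56 in control arrays, so that covariate overlaps with genotype. Of the 41 genes, 11 lay in the highest decile by level, where 87.7% of features had negative differences.

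Transporters carry the hormone across cell membranes. All 6 measured members had negative differences, with a median of -0.30, and 2 had an unadjusted p under 0.05. Slc7a8, an amino acid and thyroid hormone transporter, read 6.90 ± 0.29 in knockout and 7.41 ± 0.21 in control cochlea (SD, n = 4), a difference of -0.51 (limma adjusted p = 0.296). Slc7a5, the large neutral amino acid transporter, was at -0.39, and Slc3a2, the heavy chain with which both pair, at -0.32. These levels were bright, at a median percentile of 93.4. After cyclic loess the list median was -0.16, with Slc7a8 at -0.31, Slc7a5 at -0.17 and Slc3a2 at -0.10, and another member, Slco1c1, turned to 0.03.

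Binding and deiodination partners showed no common direction, with 2 negative and 3 positive differences among 5 and a median of 0.12, which was -0.01 after cyclic loess. Ttr, a carrier of T4 in blood and cerebrospinal fluid, was at -0.27, Dio1, the deiodinase typical of liver and kidney, at 0.15, and Serpina7, a serum carrier in the lowest decile of features, at 0.21. None had an unadjusted p under 0.05 in limma.

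The retinoid X receptors, partners of both receptors on DNA, were at -0.09 for Rxra, -0.14 for Rxrb and -0.17 for Rxrg, and 0 of 3 had an unadjusted p under 0.05 in limma. After cyclic loess Rxrg was at -0.28 (unadjusted p = 0.0498, limma adjusted p = 0.523).

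Corepressors and coactivators had the same sign throughout as deposited. Both lists were bright, at median percentiles of 88.7 and 89.4. Negative differences were found in 82.4% of all features in decile 9 by level and 87.7% in decile 10. Among corepressor components all 4 measured members were negative, with a median of -0.32, and 3 had an unadjusted p under 0.05. Those were the histone deacetylase gene Hdac3 at -0.29, Tbl1x at -0.34 and Tbl1xr1 at -0.47, both subunits of the corepressor complex (limma adjusted p = 0.306, 0.306 and 0.308). After cyclic loess they were at -0.08, -0.17 and -0.31, the remaining member Gps2 turned to 0.03, and the list median was -0.13. All 8 coactivators were negative, with a median of -0.28, and 4 had an unadjusted p under 0.05, among them the acetyltransferase genes Ep300 at -0.31 and Crebbp at -0.39. Ppargc1a, a coactivator that promotes mitochondrial biogenesis and is abundant in muscle, read 5.48 ± 0.02 in knockout and 5.79 ± 0.20 in control cochlea (SD, n = 4), a difference of -0.31 (limma adjusted p = 0.305). After cyclic loess Ppargc1a was at -0.32 (adjusted p = 0.432), Ep300 at -0.10 and Crebbp at -0.18. Ncoa2 then turned to 0.13, and the list median was -0.12.

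Genes that T3 regulates in several tissues had a median of -0.08 over 9 members, 6 negative and 3 positive, and 2 had an unadjusted p under 0.05. Me1, the malic enzyme that supplies NADPH, was at -0.40 as deposited and after cyclic loess (limma adjusted p = 0.301 and 0.432). Atp2a2, the calcium pump of slow muscle and many other cells, was at -0.29, and -0.07 after cyclic loess, and Mbp, a myelin protein gene, at -0.25, and -0.09 after cyclic loess. Cochlear genes reported to depend on thyroid hormone had a median of -0.0036 over 6 members, 3 negative and 3 positive, and 0 of 6 had an unadjusted p under 0.05 in limma. The tectorial membrane genes Tectb and Tecta were at -0.13 and 0.10, and Kcnma1, the BK potassium channel gene of inner hair cells, was at -0.16. After cyclic loess the list median was -0.07.

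**Figure D4:**
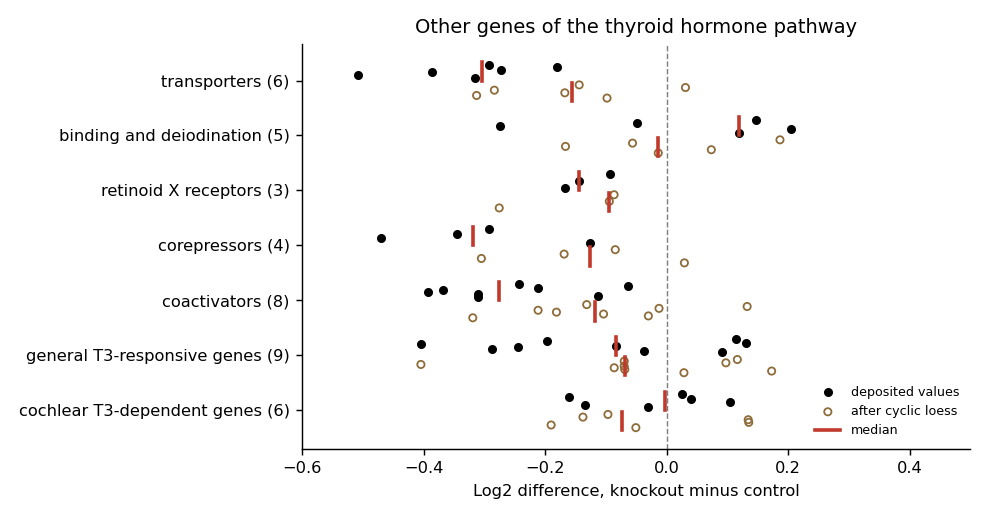
Log2 difference, knockout minus control (x axis), of each measured gene in 7 lists of the thyroid hormone pathway (rows, number of genes in brackets), as deposited (filled) and after cyclic loess normalization (open), with list medians as red bars. The transporter, corepressor and coactivator medians were -0.30, -0.32 and -0.28 as deposited and -0.16, -0.13 and -0.12 after cyclic loess.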

How the data were processed

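Per the labels, the authors deposited log2 values that Affymetrix Expression Console made by RMA at gene level (background correction, quantile normalization, median polish). The log2 scale was inferred from their range, 0.90 to 13.5. Software version and the set of arrays that entered the quantile step are not given in the sources used. The annotation linked 23521 of 41345 features to exactly 1 symbol, 1814 to several and 16010 to none. RefSeq's gene table (GRCm38.p6) served for names and overlaps only, and no detection call or batch was used.

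Genotypes were compared in limma 3.58.1 under R 4.3.3 (lmFit and eBayes with intensity trend, genotype as the only term), adjusted by Benjamini-Hochberg over the 23521 features. The fit was also run on simulated data with independent noise. Those data lacked the differences that follow level, so they cannot show how the fit behaves with them. Intervals are limma's at 95%. The members and lists were chosen with earlier results of these data known. Named were the 5 genes, 3 members of each pathway list with the smallest p, and the 3 genes nearest to each of the 5. The labels do not say that replicate numbers pair the samples. Deviations of same-numbered arrays correlated at -0.29 to 0.21 and those of other numbers at up to 0.40, which cannot show whether animals were paired. The number of arrays limits the precision.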

Additional observations from a re-analysis of the deposited data

Results flagged for a closer look

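In 2 of 16 groups of 4 arrays examined for the 5 genes, 1 array lay apart from the other 3 beyond Dixon's 95% critical value, which chance passes in about 1 in 20 groups. Thra was at 6.11 in knockout replicate 2, where the other knockout arrays ran from 5.88 to 5.92. Without that array the Thra difference was -0.18 (limma adjusted p = 0.367). The dimmer Dio2 feature was at 3.82 in knockout replicate 4, where the other knockout arrays ran from 4.27 to 4.31.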

How the results depend on the processing

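In 18 alternatives each (19 for Dio2, 17 for Dio3, which the filter on a mean of at least 5 removed), 0 of the 5 genes passed, and Thra, Thrb and Dio2 kept their sign in all of theirs. Dio3 turned to 0.12 with the signal range covariate and 0.11 with the muscle covariate, and ran from -0.076 to 0.084 when single arrays were left out, with a positive sign in the absence of knockout replicate 2, knockout replicate 3, control replicate 2 or control replicate 4. Crym turned to 0.012 after cyclic loess, and ran from -0.14 to 0.036 when single arrays were left out, positive without knockout replicate 2. Thrb minus Thra ran from -0.18 to 0.0039, positive without control replicate 2. With the replicate number as a block, 3 features were called and no call of the 5 genes changed. These were not the same 3 features, since 1 was higher and 2 were lower in knockout, against 0 and 3 in the main fit. The count of called features, 3, was 1 with all features of the table, with the signal range covariate and with the muscle covariate, 8 with array weights and 7 at an adjusted p of 0.10. It ran from 1 (without control replicate 1) to 21 (without control replicate 3) when single arrays were left out. Of 126 list medians under alternatives, 15 moved by more than the spread between replicates. The cause was not tested. Cyclic loess and the signal range covariate were chosen with earlier results known.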

Other observations

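Beyond the genes picked by the naming rule, some familiar members of the lists, chosen after their values were seen, had these differences. Klf9, a transcription factor gene induced by T3, was at -0.20 as deposited and -0.07 after cyclic loess. Hr, a corepressor gene induced by T3 in brain, was at 0.11 and 0.12. Slc26a5, the prestin gene of outer hair cells, was at 0.02 and -0.10, and Kcnj10, a potassium channel gene of the stria vascularis, at 0.04 and 0.13. None of these 4 genes had an unadjusted p under 0.05 in limma with either set of values.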
